A study of Mus musculus with 2 samples.

Results

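Basement membrane transcripts of brain vessels were described for 10 genes, Col4a1, Col4a2, Lama2, Lama4, Lama5, Lamb1, Lamb2, Nid1, Hspg2 and Sparc, which were listed by name out of the 31053 genes in the tables. All 10 were found by symbol. They were measured in a droplet single-cell RNA library of the hippocampus from Mr1-/- mice and another from Mr1+/+ mice. Mr1 encodes a molecule that presents vitamin B2-related metabolites to T cells. The mice of both genotypes were 7 months old and untreated. Tissue was dissociated with a kit made for primary neurons, and sorting kept cells that shut out DAPI, which stains dead cells, and took up the DNA dye Draq5. The study's title describes them as non-neuronal. How many mice a library pools is not stated, and neither genotype carries another allele or agent in the labels. The 10x Genomics 5' kit used tags each captured transcript with a unique molecular identifier (UMI).

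The library from Mr1-/- mice held 5347 cell barcodes and 18349132 UMIs, and that from Mr1+/+ mice held 6410 barcodes and 23244575 UMIs. Filters left 5107 cells from Mr1-/- mice and 5992 from Mr1+/+ mice. Of the kept barcodes, 39 occurred in both libraries. Mr1 itself, the targeted gene, had 2 UMIs over the Mr1-/- cells and 130 over the Mr1+/+ cells, as the labels say. With 1 library for each genotype there is no replicate, no test between genotypes and no p-value. Levels are given as CPM, the UMIs of a gene over all UMIs of its cell group, scaled to the usual common total, with exact 95% Poisson intervals, and ratios are Mr1-/- over Mr1+/+. Intervals cover counting error only, not differences between animals.

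The basement membrane is a thin protein sheet on the outer face of the endothelium and around pericytes and smooth muscle cells. It is built from a network of type IV collagen and a network of laminin, which is a trimer of an α, a β and a γ chain. Nidogen and the heparan sulfate proteoglycan perlecan link the networks, and SPARC is a collagen-binding protein. In brain, astrocyte endfeet contribute a further sheet around the vessels, and mutations of COL4A1 and COL4A2 are a known cause of human small vessel disease.

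The upstream sequences of Lama2, Lama5 and Lamb1 are shown because these laminin genes separated the vessel cell groups most sharply. RefSeq promoter windows (build GRCm38.p6) were matched for 9 of the 10 genes, and the bases before the start site that lie outside annotated exons are printed 5′ to 3′ on the strand of the gene. Capitals mark 3 motifs, searched on both strands, whose letters do not overlap one another. These are the GC box, spelled GGGCGG on the gene's strand and CCGCCC where it lies on the opposite one, the CCAAT box, whose opposite spelling is ATTGG, and the TATA box, spelled TATAAA in one direction and TTTATA in the other.
Lama2, chr10:27616943-27617192, minus strand: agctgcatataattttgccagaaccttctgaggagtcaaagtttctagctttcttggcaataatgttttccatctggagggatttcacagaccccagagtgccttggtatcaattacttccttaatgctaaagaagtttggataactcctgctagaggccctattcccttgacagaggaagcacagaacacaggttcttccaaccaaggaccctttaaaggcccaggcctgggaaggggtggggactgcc
Lama5, chr2:180225860-180226109, minus strand: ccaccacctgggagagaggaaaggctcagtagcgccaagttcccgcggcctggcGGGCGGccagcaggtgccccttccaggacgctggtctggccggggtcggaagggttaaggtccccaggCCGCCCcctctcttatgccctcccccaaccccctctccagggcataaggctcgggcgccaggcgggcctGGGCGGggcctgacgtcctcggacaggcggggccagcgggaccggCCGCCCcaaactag
Lamb1, chr12:31265043-31265233, plus strand: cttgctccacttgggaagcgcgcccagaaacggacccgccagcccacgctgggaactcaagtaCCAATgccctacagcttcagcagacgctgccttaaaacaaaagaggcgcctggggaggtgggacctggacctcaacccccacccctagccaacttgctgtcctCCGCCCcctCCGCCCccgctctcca
The Lama5 window held 4 GC boxes and was 72.4% G or C. The Lama2 window held none of the searched motifs and was 47.2% G or C. The Lamb1 window, of 191 bases, held 2 GC boxes and 1 CCAAT box and was 63.9% G or C. Of 32851 RefSeq promoters, 32.7% held a GC box, 33.8% a CCAAT box and 12.4% a TATA box within 250 bases before the start, and 30.7%, 28.5% and 9.51% did so within 191 bases. A match describes letters only. The RefSeq start of Lama2 lies inside the Lama2 gene of the GENCODE annotation, so another start exists for that gene.

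Vessel cells made up 2561 of the Mr1-/- cells (50.1%) and 2428 of the Mr1+/+ cells (40.5%). These were 1558 Mr1-/- and 1434 Mr1+/+ endothelial-like cells, 971 Mr1-/- and 965 Mr1+/+ mural-like cells (pericytes and smooth muscle cells), and 32 Mr1-/- and 29 Mr1+/+ fibroblast-like cells. None of the 10 genes took part in the clustering. The fibroblast-like cluster carried all 7 fibroblast markers in both libraries, but also mural markers summing to 8074 CPM in Mr1-/- cells and 3795 CPM in Mr1+/+ cells. Vtn gave most of this sum, at 7381 CPM in Mr1-/- and 3226 CPM in Mr1+/+ cells. Pdgfrb had 245 CPM in Mr1-/- and 172 CPM in Mr1+/+, and Kcnj8 25.4 CPM in Mr1-/- and 18.1 CPM in Mr1+/+. Rgs5 had 33.8 CPM in Mr1-/- and 0 CPM in Mr1+/+. The part of these mural transcripts in the values of the cluster was not tested.

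Measured by class, 9 of the 10 genes were highest in a vascular class, and Sparc, highest in microglia, went against the name of the set. Of all 14003 genes with at least 50 UMIs, 22.9% were highest in a vascular class. The fibroblast-like cells led for Col4a1, Col4a2, Lama2, Lamb1, Nid1 and Hspg2, although their intervals were wide, and the mural-like cells led for Lama4, Lama5 and Lamb2. The share of a gene's UMIs that came from vascular cells was 98.4% in Mr1-/- and 96.8% in Mr1+/+ cells for Col4a1 and 99.4% in Mr1-/- and 97.0% in Mr1+/+ for Lama4. Vascular shares were between 83.8% and 99.4% for the genes other than Lama2 and Sparc. Lama2 drew 56.6% of its UMIs from vascular cells in Mr1-/- and 42.7% in Mr1+/+ mice, and for Sparc the shares were 27.8% in Mr1-/- and 26.4% in Mr1+/+. Of the UMIs of all genes, vascular cells gave 35.9% in Mr1-/- and 29.6% in Mr1+/+. Astrocytes, which also held Lama2, were 9.34% of Mr1-/- and 16.0% of Mr1+/+ cells. The part of the cell mix in these shares was not tested.

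**Figure D1:**
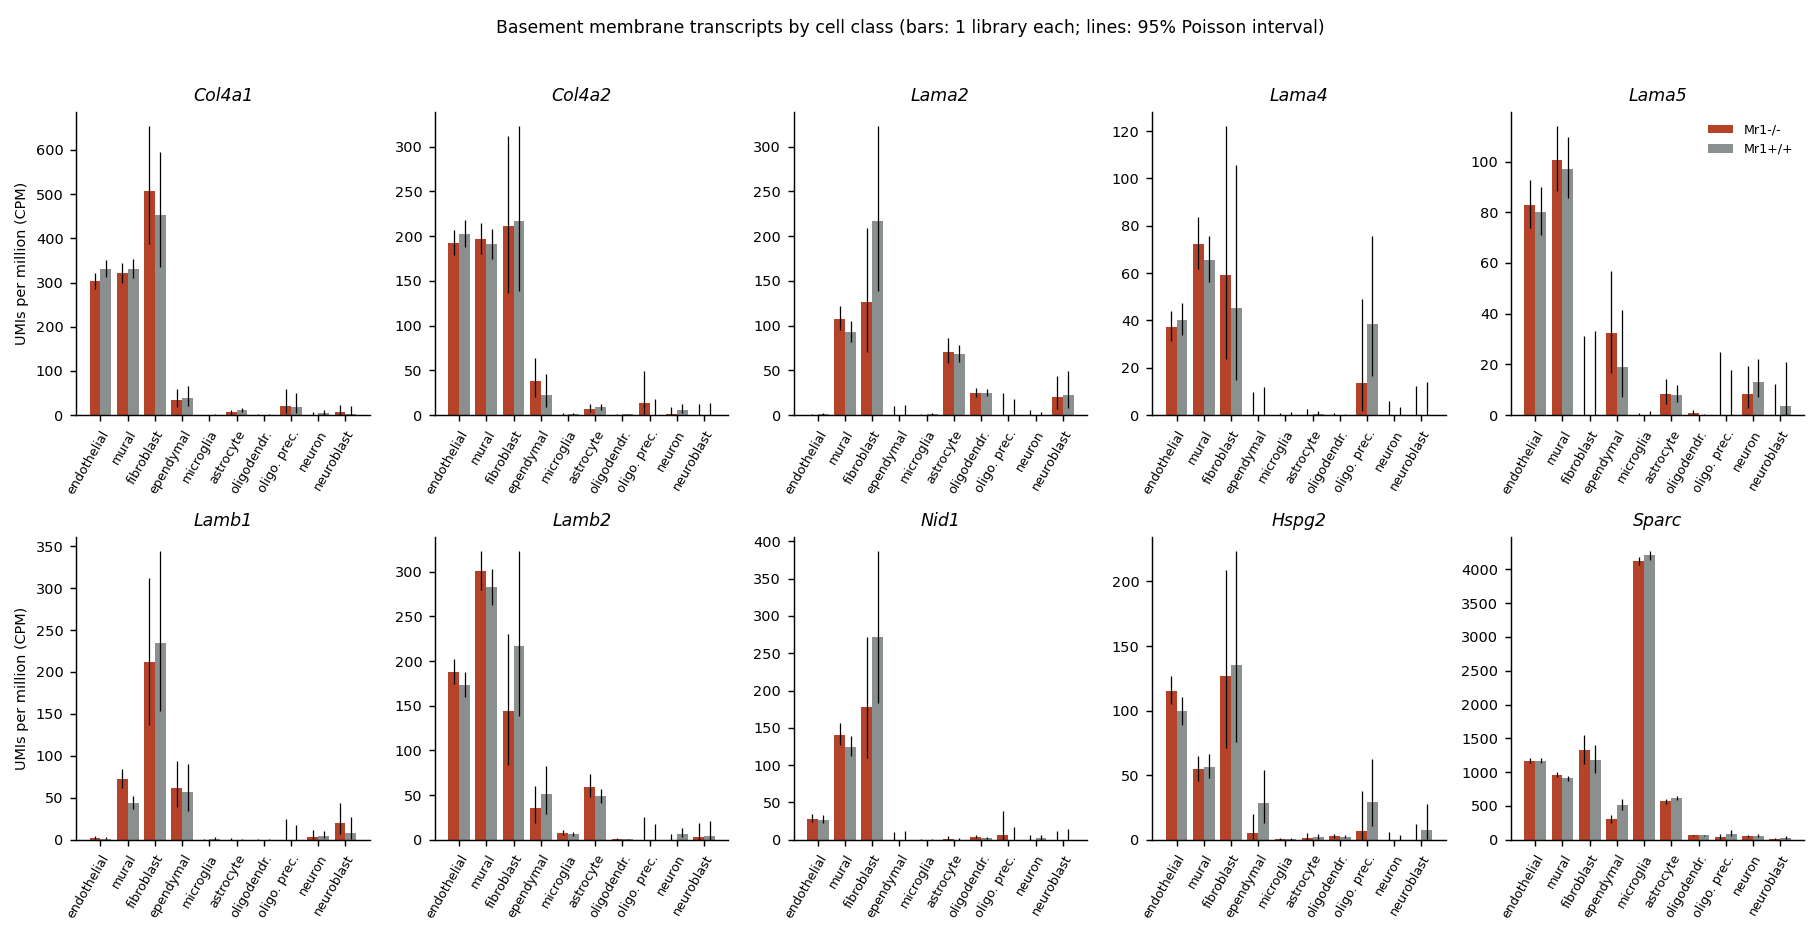
Level of each gene (CPM, linear axis from 0) by cell class, with the Mr1-/- library as the left bar, the Mr1+/+ library as the right bar and 95% Poisson intervals as lines. Vascular classes hold the tallest bars in every panel except Sparc, where microglia stand at 4122 CPM in Mr1-/- and 4205 CPM in Mr1+/+ cells.

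Type IV collagen is secreted as a trimer of chains, in vessels mostly made of the α1 and α2 chains that Col4a1 and Col4a2 encode. The genes lie head to head on chromosome 8 (mm10; Col4a1 at chr8:11198423-11312826, minus strand, and Col4a2 at chr8:11312805-11449287, plus strand), and the annotated genes share 22 bases at their starts. Whether reads were counted by strand is not stated, so reads in those bases could have gone to either gene.

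Col4a1 stood at 303 CPM (interval 286 to 322; 1113 UMIs) in Mr1-/- endothelial-like cells, against 331 CPM (313 to 351; 1174 UMIs) in Mr1+/+ ones. Mural-like cells had 321 CPM in Mr1-/- and 330 CPM in Mr1+/+. The fibroblast-like cells gave 507 CPM (387 to 653) in Mr1-/- and 452 CPM (335 to 596) in Mr1+/+. Endothelium and mural cells therefore carried the collagen at a like level, and outside the vessels it was low, at 35.2 CPM in Mr1-/- and 38.1 CPM in Mr1+/+ ependymal-like cells and 0 UMIs in Mr1-/- and 2 UMIs in Mr1+/+ microglia. Col4a2 had 193 CPM in Mr1-/- and 203 CPM in Mr1+/+ endothelial-like cells. Mural-like cells had it at 197 CPM in Mr1-/- and 191 CPM in Mr1+/+.

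The vessel classes were clustered again into 10 groups, named after their segment markers. Mural-like cells split into pericytes (Kcnj8; 491 Mr1-/- and 442 Mr1+/+ cells), smooth muscle cells led by Olfr558 (215 Mr1-/- and 208 Mr1+/+), smooth muscle cells led by Cnn1 (149 Mr1-/- and 211 Mr1+/+) and a group led by Ccl19 (116 Mr1-/- and 104 Mr1+/+). Endothelial-like cells split into capillary cells with Car4 (693 Mr1-/- and 591 Mr1+/+) or with Tfrc (184 Mr1-/- and 191 Mr1+/+), arterial cells with Stmn2 (425 Mr1-/- and 408 Mr1+/+) or Mgp (71 Mr1-/- and 61 Mr1+/+), venous cells with Ackr1 (128 Mr1-/- and 147 Mr1+/+) and cells with Plvap (50 Mr1-/- and 30 Mr1+/+), a gene of fenestrated endothelium. The Ccl19-led cells carried all 9 pericyte markers and Acta2, the smooth muscle actin, at 2603 CPM in Mr1-/- and 3445 CPM in Mr1+/+ cells, and no pericyte marker was among their top 10 genes, so they are called by their leading gene.

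Col4a1 was highest in the Plvap cells, at 734 CPM in Mr1-/- and 974 CPM in Mr1+/+. It was next in the Ccl19-led cells (468 CPM in Mr1-/- and 518 CPM in Mr1+/+), the Tfrc capillary cells (433 CPM in Mr1-/- and 474 CPM in Mr1+/+) and the pericytes (463 CPM in Mr1-/- and 429 CPM in Mr1+/+), whose order differed between the libraries. The Car4 capillary cells (238 CPM in Mr1-/- and 248 CPM in Mr1+/+) and both smooth muscle groups (196 to 251 CPM) were at the low end. Capillary cells thus came at 2 levels, and the intervals of the Tfrc cells (367 to 507 in Mr1-/- and 413 to 542 in Mr1+/+) lay above those of the Car4 cells (215 to 264 in Mr1-/- and 222 to 276 in Mr1+/+). The Tfrc cells also had the nuclear RNA Neat1 at 256 CPM in Mr1-/- and 235 CPM in Mr1+/+, against 84.5 CPM in Mr1-/- and 73.4 CPM in Mr1+/+ Car4 cells, and were shallower, with medians of 1909 UMIs in Mr1-/- and 2272 UMIs in Mr1+/+ against 2183 in Mr1-/- and 2322 in Mr1+/+ Car4 cells. The part of these in the collagen level was not tested.

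Col4a2 shared the top of this order, with Plvap cells at 430 CPM in Mr1-/- and 582 CPM in Mr1+/+, followed by the Ccl19-led and Tfrc capillary cells. The pericytes were an exception. They had 210 CPM of Col4a2 in Mr1-/- and 164 CPM in Mr1+/+, overlapping the Cnn1 smooth muscle cells at 193 CPM in Mr1-/- and 192 CPM in Mr1+/+, whereas for Col4a1 they lay above both smooth muscle groups. The levels of both genes over 18 cell groups in 2 libraries (36 points) had a Pearson r of 0.986 on the log2(CPM + 10) scale. These points share libraries and depth, and the value is a description. Detection of the pair in single cells was compared by class. After each cell was thinned to 1500 UMIs, 29.1% of Mr1-/- and 30.9% of Mr1+/+ endothelial-like cells with a Col4a1 UMI also had a Col4a2 UMI, against 21.2% of Mr1-/- and 18.8% of Mr1+/+ cells without one. The order was the other way in the Tfrc capillary cells of Mr1-/- mice, at 23.3% of cells with Col4a1 and 25.8% of those without, and in the Ccl19-led cells of Mr1-/- mice, at 27.9% and 31.7%.

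The balance of the pair differed within the vessel wall. The 5' kit counts 1 end of each transcript, so no length scaling was made, and because capture can differ between genes the shares are compared only across cell groups. Col4a1 made up 68.8% (95% Clopper-Pearson interval 64.8 to 72.5) of the pair's UMIs in Mr1-/- pericytes and 72.3% (68.2 to 76.1) in Mr1+/+ pericytes. In Cnn1 smooth muscle cells it was 52.8% (46.2 to 59.3) in Mr1-/- and 56.6% in Mr1+/+, and in Olfr558 smooth muscle cells 54.7% (48.6 to 60.7) in Mr1-/- and 60.1% in Mr1+/+. Every endothelial group lay between 57.8% and 63.5%.

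**Figure D2:**
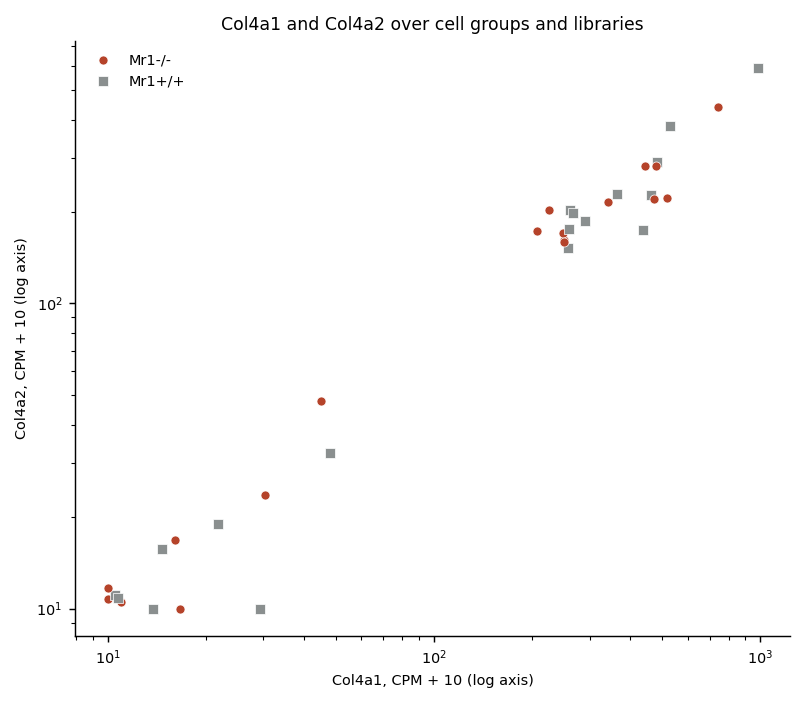
Col4a2 level against Col4a1 level (CPM + 10, both axes logarithmic), 1 point for each cell group and library. The vessel groups and fibroblast-like cells sit at the upper right, with Col4a1 at 196 CPM or more, and the other classes sit at the lower left.

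Laminin α chains define the trimer, since the α chain carries the main binding sites for cell receptors. Lama4 and Lama5 are known as the α chains of the endothelial basement membrane, and Lama2 as that of muscle and of the astrocyte sheet. The genes lie at chr10:26980036-27619758 (Lama2), chr10:38965515-39110188 (Lama4) and chr2:180176373-180225859 (Lama5) in mm10.

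Lama2 separated pericytes from every endothelial group. Mr1-/- pericytes had 218 CPM (188 to 251; 192 UMIs) and Mr1+/+ pericytes 213 CPM (184 to 246; 187 UMIs). Endothelial-like cells had 0 UMIs in Mr1-/-, which allows up to 0.817 CPM, and 3 UMIs in Mr1+/+. Of these 3 UMIs, 2 were in Plvap cells, which carried 3 of 11 mural markers at a summed 22.2 CPM in Mr1-/- and 7 of 11 at 1466 CPM in Mr1+/+. The smooth muscle groups were low, with 26.2 CPM in Mr1-/- and 22.3 CPM in Mr1+/+ Olfr558 cells and 1 UMI in Mr1-/- and 7 UMIs in Mr1+/+ Cnn1 cells. The Ccl19-led cells, with 227 CPM in Mr1-/- and 188 CPM in Mr1+/+, were near the pericytes.

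Lama2 was also present outside the vessels. Astrocytes had 71.0 CPM (104 UMIs) in Mr1-/- and 68.7 CPM (209 UMIs) in Mr1+/+, and oligodendrocytes had 24.6 CPM in Mr1-/- and 24.9 CPM in Mr1+/+. In cells thinned to 1500 UMIs, 11.0% of Mr1-/- and 9.5% of Mr1+/+ astrocytes and 3.2% of Mr1-/- and 3.4% of Mr1+/+ oligodendrocytes had a Lama2 UMI. Microglia, whose cells had median depths of 3815 UMIs in Mr1-/- and 4293 UMIs in Mr1+/+ before thinning, gave 0 of 734 cells in Mr1-/-, which allows up to 0.409%, and 0 of 621 in Mr1+/+, which allows up to 0.483%, so the astrocyte share is not a level common to all cell types.

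Lama5 ran the opposite way among mural cells. Olfr558 smooth muscle cells had 193 CPM (163 to 226; 147 UMIs) in Mr1-/- and 191 CPM (161 to 226; 137 UMIs) in Mr1+/+, and Cnn1 smooth muscle cells had 153 CPM in Mr1-/- and 134 CPM in Mr1+/+. Pericytes had 1 UMI in each library, or 1.14 CPM (0.0288 to 6.33) in Mr1-/- and 1.14 CPM (0.0289 to 6.35) in Mr1+/+. The 2 smooth muscle groups and the pericytes thus did not overlap in either library for Lama2 or for Lama5. Endothelial groups had 62.9 to 142 CPM, with the Tfrc capillary cells at 124 CPM in Mr1-/- and 142 CPM in Mr1+/+ and the Car4 capillary cells at 66.2 CPM in Mr1-/- and 62.9 CPM in Mr1+/+. Fibroblast-like cells had no Lama5 UMI, which allows up to 25.4 CPM in Mr1-/- and 27.1 CPM in Mr1+/+.

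Lama4 was shared by mural and endothelial cells. Mural-like cells had 72.2 CPM in Mr1-/- and 65.4 CPM in Mr1+/+, and endothelial-like cells 37.3 CPM in Mr1-/- and 40.1 CPM in Mr1+/+. Pericytes stood at 125 CPM in Mr1-/- and 131 CPM in Mr1+/+, and the smooth muscle groups at 16.7 to 29.5 CPM. Among endothelial cells it was highest in Plvap cells, at 88.9 CPM in Mr1-/- and 141 CPM in Mr1+/+. The α chain set of pericytes therefore was of a different make-up from that of the smooth muscle and endothelial groups. In pericytes 63.4% of the UMIs of the 3 α genes were Lama2 in Mr1-/- and 61.7% in Mr1+/+, and 36.3% were Lama4 in Mr1-/- and 38.0% in Mr1+/+. In Olfr558 smooth muscle cells 80.3% were Lama5 in Mr1-/- and 83.0% in Mr1+/+, and in endothelial-like cells 68.9% in Mr1-/- and 66.2% in Mr1+/+ were Lama5. Smooth muscle and endothelium were not set apart in every group. Lama5 was 83.0% in Mr1-/- and 79.3% in Mr1+/+ Cnn1 smooth muscle cells. In Stmn2 arterial cells it was 71.2% in Mr1-/- and 77.1% in Mr1+/+, with overlapping intervals.

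**Figure D3:**
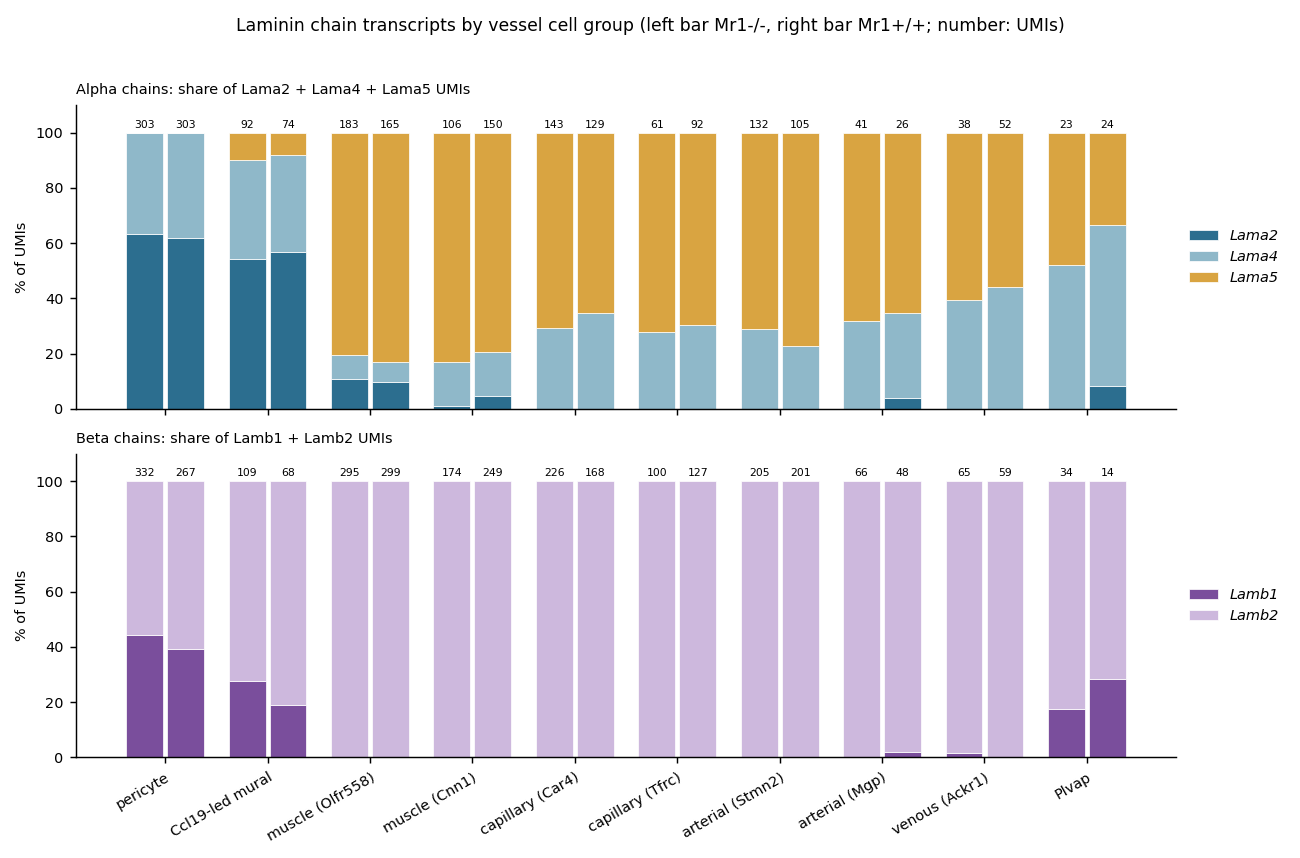
Share (%) of the UMIs of Lama2, Lama4 and Lama5, and of Lamb1 and Lamb2, by vessel cell group, with the Mr1-/- library as the left bar and the Mr1+/+ library as the right bar and the number of UMIs written by each bar. Lama2 fills 63.4% of the Mr1-/- and 61.7% of the Mr1+/+ pericyte bar, and Lama5 80.3% of the Mr1-/- and 83.0% of the Mr1+/+ Olfr558 smooth muscle bar.

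Among β chains, Lamb1 was at or near 0 UMIs in most vessel groups and Lamb2 was present in all of them. Lamb1 (chr12:31265234-31329644) had 167 CPM (141 to 196; 147 UMIs) in Mr1-/- pericytes and 120 CPM (98.0 to 145; 105 UMIs) in Mr1+/+ pericytes. Ccl19-led cells had 136 CPM (30 UMIs) in Mr1-/- and 58.1 CPM (13 UMIs) in Mr1+/+, and fibroblast-like cells 211 CPM in Mr1-/- and 235 CPM in Mr1+/+. The smooth muscle groups together held 0 UMIs in Mr1-/- and 1 UMI in Mr1+/+, and both capillary groups and the Stmn2 arterial cells held none in either library. Endothelial-like cells as a class held 7 Lamb1 UMIs in Mr1-/- and 5 in Mr1+/+, of which 6 in Mr1-/- and 4 in Mr1+/+ were in the Plvap cells, whose mural marker levels are given above. Outside the vessels Lamb1 was highest in ependymal-like cells, at 62.3 CPM (23 UMIs) in Mr1-/- and 57.2 CPM (18 UMIs) in Mr1+/+, which gave 9.58% of all Lamb1 UMIs in Mr1-/- and 10.1% in Mr1+/+.

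Lamb2 (chr9:108479736-108490530) had 300.5 CPM in Mr1-/- and 282 CPM in Mr1+/+ mural-like cells and 188 CPM in Mr1-/- and 173 CPM in Mr1+/+ endothelial-like cells. Olfr558 smooth muscle cells were highest, at 386 CPM in Mr1-/- and 416 CPM in Mr1+/+, and pericytes had 210 CPM in Mr1-/- and 185 CPM in Mr1+/+. Astrocytes had 59.4 CPM in Mr1-/- and 48.7 CPM in Mr1+/+. Of the UMIs of the 2 β genes, Lamb1 gave 44.3% in Mr1-/- and 39.3% in Mr1+/+ pericytes, against 1.0% in Mr1-/- and 0.808% in Mr1+/+ endothelial-like cells. Of the 10 vessel groups pericytes thus had the highest Lamb1 share, with the Ccl19-led cells at 27.5% in Mr1-/- and 19.1% in Mr1+/+. Plvap cells, with few UMIs, had 17.6% (6 of 34 UMIs) in Mr1-/- and 28.6% (4 of 14 UMIs; interval 8.39 to 58.1) in Mr1+/+. The last interval includes the pericyte share.

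**Figure D4:**
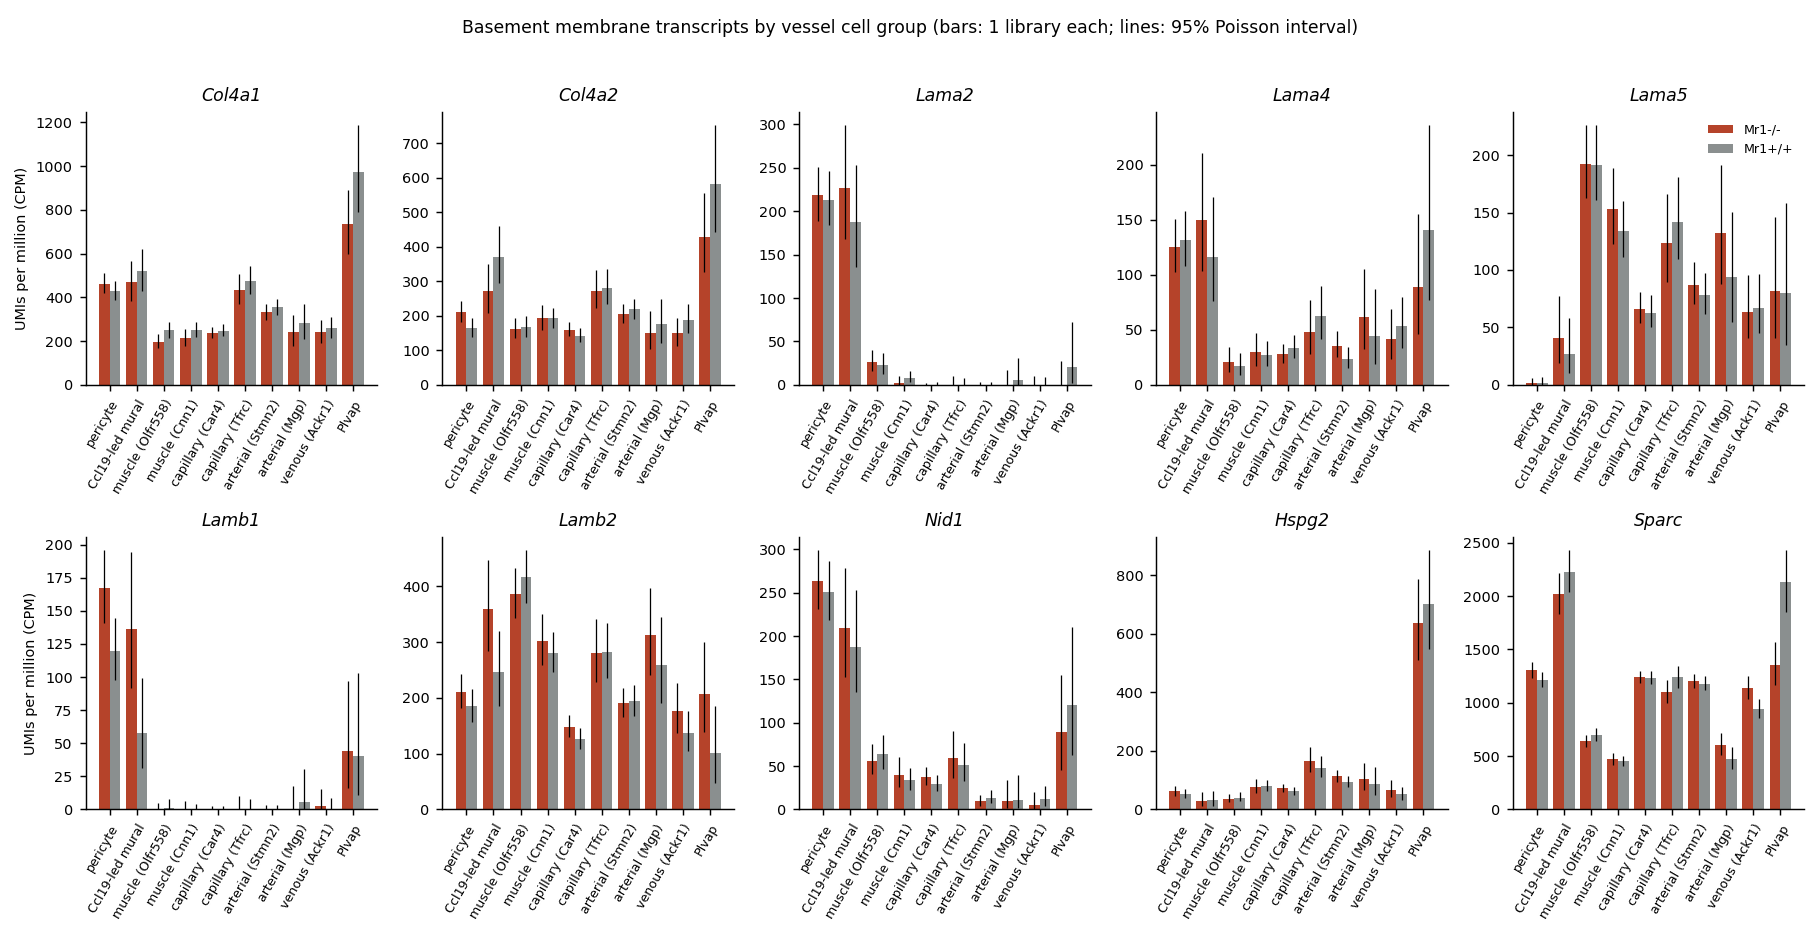
Level of each gene (CPM, linear axis from 0) in the 10 vessel cell groups, with the Mr1-/- library as the left bar, the Mr1+/+ library as the right bar and 95% Poisson intervals as lines. Lama2 and Lamb1 stand in pericytes and Ccl19-led cells, Lama5 in smooth muscle and endothelial groups but at 1.14 CPM in the pericytes of both libraries.

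The linkers of the 2 networks differed in their leading groups. Nid1 (nidogen-1; chr13:13437551-13512269), which binds laminin and collagen, had 141 CPM in Mr1-/- and 125 CPM in Mr1+/+ mural-like cells, against 28.3 CPM in Mr1-/- and 27.1 CPM in Mr1+/+ endothelial-like cells. Pericytes, at 264 CPM in Mr1-/- and 251 CPM in Mr1+/+, were well above the smooth muscle groups, at 33.8 to 64.2 CPM. Arterial and venous endothelial groups lay at 5.53 to 13.5 CPM, and the Car4 capillary cells at 37.3 CPM in Mr1-/- and 29.2 CPM in Mr1+/+. The class difference did not hold for every group, since Plvap cells, at 88.9 CPM in Mr1-/- and 120.5 CPM in Mr1+/+, exceeded both smooth muscle groups.

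Hspg2 (perlecan; chr4:137468769-137570630) was higher in the endothelial class. Endothelial-like cells had 115.5 CPM (424 UMIs) in Mr1-/- and 99.3 CPM (352 UMIs) in Mr1+/+, and mural-like cells had 54.5 CPM in Mr1-/- and 56.5 CPM in Mr1+/+. The Plvap cells stood far above the other groups, at 637 CPM in Mr1-/- and 703 CPM in Mr1+/+, and the next group, the Tfrc capillary cells, had 166 CPM in Mr1-/- and 142 CPM in Mr1+/+. The intervals of the Plvap cells lay above those of every other vessel group in both libraries. Cnn1 smooth muscle cells, at 76.5 CPM in Mr1-/- and 78.8 CPM in Mr1+/+, exceeded the Car4 capillary cells, at 72.7 CPM in Mr1-/- and 61.4 CPM in Mr1+/+, so the class difference was not shared by all groups.

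Sparc (chr11:55394500-55423183) encodes a collagen-binding matrix protein that in adult brain is also known from microglia. Microglia had 4122 CPM (16309 UMIs) in Mr1-/- and 4205 CPM (15929 UMIs) in Mr1+/+, and gave 66.4% of all Sparc UMIs in Mr1-/- and 62.3% in Mr1+/+. In cells thinned to 1500 UMIs, 99.7% of Mr1-/- and 99.8% of Mr1+/+ microglia had a Sparc UMI, as had 76.7% of Mr1-/- and 76.9% of Mr1+/+ endothelial-like cells and 72.5% of Mr1-/- and 69.1% of Mr1+/+ mural-like cells. Neuroblast-like cells, whose median depths were 3735 UMIs in Mr1-/- and 3852 UMIs in Mr1+/+ before thinning, gave 1 of 57 cells in Mr1-/- and 0 of 61 in Mr1+/+, which allows up to 4.92%, and neurons 9.1% in Mr1-/- and 10.4% in Mr1+/+. Neuroblast-like cells had the lowest Sparc level of the named classes, at 10.0 CPM in Mr1-/- and 22.7 CPM in Mr1+/+. Their share is read as background by choice, and whether it is the background of the other classes was not tested. Oligodendrocytes, at 10.3% in Mr1-/- and 8.4% in Mr1+/+, were near the neurons.

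Within the vessels Sparc was highest in the Ccl19-led cells, at 2017 CPM in Mr1-/- and 2230 CPM in Mr1+/+. Pericytes had 1308 CPM in Mr1-/- and 1216 CPM in Mr1+/+, and Cnn1 smooth muscle cells were lowest, at 473 CPM in Mr1-/- and 450.2 CPM in Mr1+/+. Capillary and Stmn2 arterial groups lay between 1102 and 1240.0 CPM. Mgp arterial cells were lower than the other endothelial groups, at 605 CPM in Mr1-/- and 475 CPM in Mr1+/+.

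Col4a1, Lama2, Lama4, Lamb1, Nid1 and Sparc (6 of the 10 genes) were higher in pericytes than in both smooth muscle groups, without overlap of the libraries, and Lama5 and Lamb2 were lower. Of 8347 genes with at least 50 UMIs in these cells, 43.9% were higher in pericytes by the same rule and 18.2% were lower, and whether the members differ from that background was not tested. The sizes of the gaps differed between members, and that of Lamb1 was extreme, with at most 1 UMI in a smooth muscle group. In cells thinned to 1500 UMIs, pericytes held UMIs of a mean of 2.80 of the 10 genes in Mr1-/- and 2.62 in Mr1+/+, against 1.93 in Mr1-/- and 1.88 in Mr1+/+ endothelial-like cells. The Ccl19-led cells, at 3.15 in Mr1-/- and 2.87 in Mr1+/+, and the Plvap cells, at 2.95 in Mr1-/- and 2.93 in Mr1+/+, held more than the pericytes.

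Between the genotypes, the genes were compared by their ratio in each class, without a test. A gene was counted as higher or lower where its ratio was at least 1.2-fold in either direction and it had at least 50 UMIs in the class. In endothelial-like cells 8 of the 10 genes could be counted, and 0 were higher and 0 lower in Mr1-/- cells, while 14.6% of all 9019 genes so measured were higher and 12.1% lower. In mural-like cells all 10 could be counted, with 1 higher and 0 lower, against 14.9% of 8622 genes higher and 13.7% lower. The median log2 ratio of the members was 0.03 in endothelial-like and 0.09 in mural-like cells, against 0.02 and 0.01 over all genes.

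Lamb1 was the gene higher in mural-like cells. It had 177 UMIs, or 72.6 CPM (62.3 to 84.1), in Mr1-/- cells and 119 UMIs, or 44.0 CPM (36.4 to 52.6), in Mr1+/+ cells, a ratio of 1.65 (1.30 to 2.10). The ratio was 1.40 (1.08 to 1.81) within pericytes and 2.35 (1.19 to 4.90) within Ccl19-led cells, the groups that hold nearly all of it. Cnn1 smooth muscle cells, which held no Lamb1 UMI, were fewer in the Mr1-/- library (149 of 971 mural-like cells) than in the Mr1+/+ library (211 of 965). The ratio within pericytes was smaller than that of the class, and that within Ccl19-led cells was larger. The class ratio stayed between 1.42 and 1.83 over 10 alternatives, among them the same mix of mural groups in both libraries. Beyond that, the part of the cell mix in the class ratio was not tested. The share of all genes past 1.2-fold, 14.9%, is the scale on which 1 gene of 10 is to be read.

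The other ratios lay near 1. For Col4a1 they were 0.915 (0.842 to 0.994) in endothelial-like and 0.973 (0.883 to 1.07) in mural-like cells, and for Col4a2 0.949 (0.855 to 1.06) and 1.03 (0.908 to 1.17). Hspg2 had 1.16 (1.01 to 1.34) in endothelial-like cells and Lama2 1.16 (0.970 to 1.38) in mural-like cells. Sparc had 0.980 (0.959 to 1.0) in microglia. In astrocytes 1 of the 3 genes counted was higher, Lamb2, at 1.22 (0.926 to 1.60), where 12.7% of all genes were higher and 17.1% lower. In microglia Lamb2 was likewise the 1 of 2 counted, at 1.21 (0.674 to 2.19) with 29 Mr1-/- and 23 Mr1+/+ UMIs, where 9.05% of all genes were higher and 14.1% lower. Both intervals include 1, and the microglial ratio did not hold its direction, being 0.934 with doublet calls kept and 0.824 with each cell given the same weight. None of the genes counted in oligodendrocytes (2) or neurons (1) passed 1.2-fold in either direction, where 9.21% and 15% of all genes were higher and 12.9% and 21.6% lower.

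Within the vessel groups the counts were small. In pericytes 9 genes were counted and 2 were higher, Lamb1 and Col4a2, the second with 185 Mr1-/- and 144 Mr1+/+ UMIs and a ratio of 1.28 (1.02 to 1.60), where 17.2% of all genes were higher and 16.8% lower. In Ccl19-led cells Lama2, Lama4 and Lamb2 were higher and Col4a2 was lower among 7 counted, where 22.0% of all genes were higher and 19.0% lower. In Olfr558 smooth muscle cells Col4a1 was lower, at 0.786 (0.629 to 0.983), where 14.3% of all genes were higher and 19.5% lower. Venous cells had Lamb2 and Sparc higher and Col4a2 lower among 5 counted, with 16.5% of all genes higher and 21.4% lower. Col4a2 stood at 273 CPM in Mr1-/- and 371 CPM in Mr1+/+ Ccl19-led cells, a ratio below 1, against a ratio above 1 in pericytes. The interval of its ratio in Ccl19-led cells includes 1, and the difference between the groups was not tested. In Cnn1 smooth muscle cells and Tfrc capillary cells none of the 7 and 6 genes counted was higher or lower, where 17.2% and 20% of all genes were higher and 17.7% and 19.4% lower. The remaining endothelial groups had Nid1 higher and Lama4 lower (Car4 capillary cells), Lama4 higher (Stmn2 arterial cells) and Lamb2 and Sparc higher (Mgp arterial cells), where 17.8% to 20.9% of all genes were higher and, in Car4 capillary cells, 14.5% were lower.

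**Figure D5:**
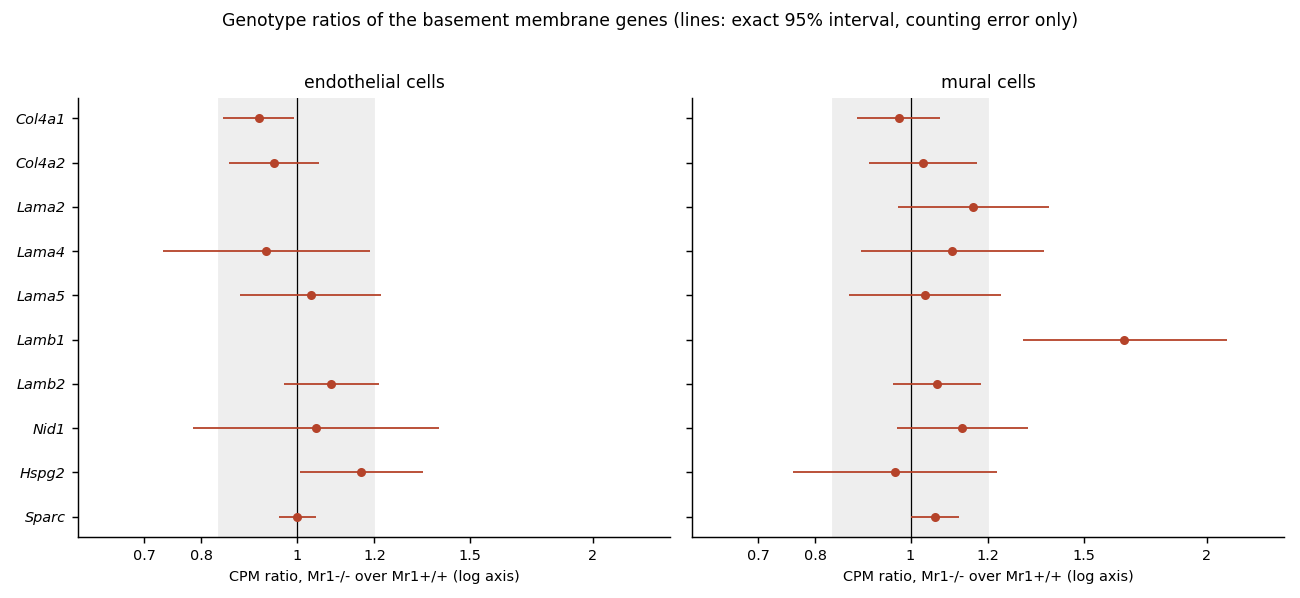
Ratio of CPM, Mr1-/- over Mr1+/+ (logarithmic axis), for each gene with at least 50 UMIs by cell group, with 95% intervals for counting error as lines and the range within 1.2-fold as a grey band. Lamb1 in mural-like cells, at 1.65, is the only endothelial-like or mural-like class value outside the band.

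Genes of known sheet partners were read from lists of related matrix genes. The γ1 chain gene Lamc1, a partner of every α and β chain above, had 574 CPM in Mr1-/- and 538 CPM in Mr1+/+ pericytes, against 141 CPM in Mr1-/- and 144 CPM in Mr1+/+ Olfr558 smooth muscle cells and 49.8 CPM in Mr1-/- and 48.7 CPM in Mr1+/+ Car4 capillary cells. Lamc3, a γ chain, had 197 CPM in the pericytes of both libraries. Lama3 was endothelial, with 61.5 CPM in Mr1-/- and 93.8 CPM in Mr1+/+ Mgp arterial cells and no UMI in pericytes. Lama1 was found mainly in fibroblast-like cells, with 37 UMIs (313 CPM) in Mr1-/- and 22 UMIs (199 CPM) in Mr1+/+. Of these 6 other laminin genes, 3 were counted in endothelial-like cells, with Lamc3 higher at 1.53 (1.07 to 2.20) and none lower, where 14.6% of all genes were higher and 12.1% lower. In mural-like cells 2 were counted, with 0 higher and 0 lower, where 14.9% of all genes were higher and 13.7% lower.

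The other type IV collagen chains were low and mural. Col4a3 and Col4a4 stood in pericytes, at 39.8 CPM in Mr1-/- and 26.2 CPM in Mr1+/+ for Col4a3 and 38.6 CPM in Mr1-/- and 25.1 CPM in Mr1+/+ for Col4a4. Col4a5 was highest in Olfr558 smooth muscle cells, at 53.7 CPM in Mr1-/- and 64.2 CPM in Mr1+/+. In mural-like cells 2 of the 4 were higher in Mr1-/-, Col4a3 at 1.34 (0.827 to 2.20) and Col4a4 at 1.51 (0.944 to 2.45), and 0 lower, with 14.9% of all genes higher. Both intervals include 1, and in endothelial-like cells none had 50 UMIs.

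Of 20 other basement membrane components, 13 were counted in endothelial-like cells, with 1 higher and 3 lower, and 11 in mural-like cells, with 0 higher and 4 lower. Beside this and the lists that follow, 14.6% of all genes were higher and 12.1% lower in endothelial-like cells, and 14.9% higher and 13.7% lower in mural-like cells. Fbln5, which encodes an elastic fibre protein, had the smallest endothelial ratio at 0.439 (0.322 to 0.592), with 65 UMIs in Mr1-/- and 143 in Mr1+/+. It is a leading gene of the Mgp arterial cells, which numbered 71 in Mr1-/- and 61 in Mr1+/+. The part of these cells in the ratio was not tested. Tinagl1, a secreted matrix protein, had 542 CPM in Mr1-/- and 562 CPM in Mr1+/+ endothelial-like cells. In mural-like cells it had 609 CPM in Mr1-/- and 719 CPM in Mr1+/+, a ratio of 0.847 (0.791 to 0.906). Of 17 receptors, 0 were higher and 2 lower among 9 counted in endothelial-like cells and 0 and 1 among 12 in mural-like cells. The integrin gene Itga1, a collagen and laminin receptor chain, had 308 CPM in Mr1-/- and 260.2 CPM in Mr1+/+ mural-like cells. Its ratio of 1.18 (1.07 to 1.31) did not pass 1.2-fold. The integrin gene Itgb1 lay below 1, at 0.914 (0.841 to 0.993) in endothelial-like and 0.926 (0.873 to 0.983) in mural-like cells. Mcam had the smallest endothelial ratio of the receptors counted, at 0.676 (0.368 to 1.22). Of 10 dissociation-associated genes, 2 were higher and 2 lower in endothelial-like cells and 3 and 3 in mural-like cells.

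The genes whose level over the 18 cell groups and both libraries ran most like each member were taken as the 3 with the highest Pearson r among 9006 genes. For Col4a1 they were Arhgap29 (0.955), Igfbp7 (0.9505) and Ppic (0.942), and for Col4a2 Arhgap29 (0.956), Uaca (0.955) and Igfbp7 (0.947). For Lama2 they were Sod3 (0.905), Slc30a10 (0.901) and Slc6a20a (0.865), and for Lamb1 Mxra8 (0.845), Slc6a20a (0.828) and Ifitm1 (0.805). For Lama5 they were Filip1 (0.946), Rassf3 (0.921) and Plcb4 (0.898). The list for Lama4 was Dlc1 (0.894), Dock6 (0.889) and Itga1 (0.883), and that for Nid1 was Lamc1 (0.891), Dock6 (0.879) and Eva1b (0.872). Copz2 (0.953), Uaca (0.9095) and Arhgap29 (0.908) were nearest to Lamb2, Rarg (0.864), Uaca (0.861) and Ppic (0.856) to Hspg2, and Cyba (0.924), Serinc3 (0.913) and Tap2 (0.903) to Sparc. Within the set the lowest values were those of Lama2 with Lama5 (-0.37) and of Lama5 with Lamb1 (-0.31).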

How the data were processed

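The authors deposited UMI counts for each barcode and gene, without normalization. Cell Ranger 3.1.0 made the matrices, per the file headers. STAR, mm10 and Cell Ranger 5.1.0 are named per the submitters' processing notes. No barcode in either library had fewer than 501 UMIs. Positions come from GENCODE M21 (mm10).

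Cells with at least 300 genes and at most 10% mitochondrial UMIs were kept (5278 Mr1-/- and 6327 Mr1+/+ cells), and Scrublet doublets (171 and 335; expected rate 0.05) were removed. Counts were scaled to 10000 per cell and log transformed, and 2000 variable genes without the 10 members and related matrix genes, 30 principal components and 15 neighbours gave Leiden clusters (resolution 1.0, seed 7) without integration. Clusters were named from marker lists, and those led by genes of another class stayed unnamed (54 Mr1-/- and 110 Mr1+/+ cells). Endothelial-like and mural-like cells were clustered again with 20 components at resolution 0.5, chosen after seeing the data. Names are rebuilt from markers and may differ from the authors'.

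Counts were summed per cell group and library. CPM with 95% Poisson intervals, ratios with conditional binomial intervals and shares with Clopper-Pearson intervals were computed, for groups with at least 25 cells (counts of genes past 1.2-fold, 50 cells), and cover counting error only. A count of 0 allows up to 3 counts. Fewer expressing cells and less RNA per cell are not separated by these sums. The share of all genes past 1.2-fold is the background of each count. The calling code was checked on simulated counts. The members and lists were chosen with earlier results of these data known. All 10 members are named. From each related list the 4 genes with the most UMIs and the largest and smallest ratio per class could be named. For each member, the 3 genes of most similar pattern among those with at least 500 UMIs were named, leaving out the other members. Clustering used scanpy 1.11.5, leidenalg 0.10.2 and scikit-learn 1.9.0 on Python 3.11.15, intervals used SciPy 1.17.1, tables used pandas 2.3.3, NumPy 2.4.6 and anndata 0.12.19, and plots used matplotlib 3.10.9. Alternatives changed the scaling, cell weights, depth, doublets, mitochondrial limit, clustering genes, resolution and segment mix.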

Additional observations from a re-analysis of the deposited data

Results flagged for a closer look

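Sparc is the gene whose ratio between the genotypes had opposite directions in cell groups with intervals that do not include 1. Its ratio was above 1 in mural-like cells (1.06) and in Ackr1 venous cells (1.21), and below 1 in astrocytes (0.916), ependymal-like cells (0.591) and Plvap cells (0.637). The last pair of ratios rest on 59 Mr1-/- and 45 Mr1+/+ ependymal-like cells and on 50 Mr1-/- and 30 Mr1+/+ Plvap cells, and so fall under the minimum of 50 cells set for counting genes past 1.2-fold. The ependymal-like cells had 306 CPM in Mr1-/- and 518 CPM in Mr1+/+, and the Plvap cells had 1356 CPM in Mr1-/- and 2129 CPM in Mr1+/+. The 50 Mr1-/- Plvap cells carried 3 of 11 mural markers at a summed 22.2 CPM and the 30 Mr1+/+ ones 7 of 11 at 1466 CPM, and the part of this in the value was not tested. With 1 library for each genotype, the difference between cell groups was not tested.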

How the results depend on the processing

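Of 243 recomputed member ratios, 222 stayed on the same side of 1 and 21 crossed it. By size, 5 moved beyond the counting interval of the first value. The ratio past 1.2-fold that changed direction was that of Lamb2 in microglia, at 0.824 with each cell weighing the same and 0.934 with doublet calls kept, against 1.21. The count of genes higher in Mr1-/- mural-like cells was 2 with each cell weighing the same, 2 with cells thinned to 1500 UMIs and 3 at a mitochondrial limit of 5%, where 1 was lower, against 1 and 0. Lamb1 in mural-like cells stayed between 1.42 and 1.83 over all 10 alternatives. The 5 ratios that moved were Lama2 in mural-like cells (0.921), Sparc in microglia (0.950) and Sparc in oligodendrocytes (1.23) after thinning, and Lama5 (0.801) and Sparc (1.16) in mural-like cells at the 5% limit. The background depends on the minimum: with at least 200 UMIs, 7.90% of genes were higher and 8.05% lower in endothelial-like cells, and 7.98% and 6.37% in mural-like cells, and with no minimum 18.4% and 21.2% were lower. Leaving out cells with barcodes in both libraries was added after seeing the data. No paired analysis was possible because each genotype has 1 library, and for the same reason no library could be left out. Members under 50 UMIs in a group were too shallow to compare.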

Other observations

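Among the 16 genes of collagen folding and export, P4ha1, a subunit of the enzyme that hydroxylates collagen prolines, was lower in the Mr1-/- library in both vessel classes. In endothelial-like cells it had 147 UMIs in Mr1-/- and 229 in Mr1+/+, a ratio of 0.620 (0.50 to 0.766), and in mural-like cells 238 UMIs in Mr1-/- and 340 in Mr1+/+, a ratio of 0.777 (0.655 to 0.919). Plod2, a collagen lysyl hydroxylase, had ratios of 0.715 (0.544 to 0.937) in endothelial-like and 0.732 (0.555 to 0.960) in mural-like cells. In the list as a whole 0 were higher and 3 lower among 11 counted in endothelial-like cells, with a median log2 ratio of -0.22 against 0.02 over all genes, and 3 were higher and 2 lower among 14 counted in mural-like cells, with a median of 0.05 against 0.01. Of all genes, 14.6% were higher and 12.1% lower in endothelial-like cells, and 14.9% higher and 13.7% lower in mural-like cells.

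Loxl2, a collagen crosslinking oxidase, ran the other way in mural-like cells, with 97 UMIs in Mr1-/- and 47 in Mr1+/+, a ratio of 2.29 (1.60 to 3.32). It was at 83.8 CPM in Mr1-/- and 44.7 CPM in Mr1+/+ Olfr558 smooth muscle cells, 86.3 CPM in Mr1-/- and 31.3 CPM in Mr1+/+ Ccl19-led cells, and 6.82 CPM in Mr1-/- and 4.56 CPM in Mr1+/+ pericytes. Among proteases and inhibitors, Mmp15 had a mural ratio of 1.58 (1.14 to 2.22) and Htra3 an endothelial ratio of 1.33 (1.10 to 1.60). The counts of this list were 1 higher and 0 lower among 7 in endothelial-like cells and 2 and 2 among 9 in mural-like cells, beside the same shares of all genes. These ratios have no replicate.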
